A study of Mus musculus with 2 samples.

Results

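The genes described are 34 of the 32285 genes in the files, taken from a list of lipid and sterol synthesis genes by their symbols. By role they are 13 enzymes of sterol synthesis, 3 regulators of that pathway, 10 genes of fatty acid synthesis, elongation and desaturation, and 8 genes of lipid uptake, activation and storage. Cells build cholesterol from acetyl-CoA through mevalonate and squalene, and build fatty acids from the same precursor. SREBP transcription factors, encoded by *Srebf1* and *Srebf2*, drive both pathways, and Insig proteins hold their precursors in the endoplasmic reticulum when sterols are plentiful. In the lung, alveolar type 2 cells (AT2s) make fatty acids for the phospholipids of surfactant, and lipid-storing fibroblasts of the alveolar wall hold triglyceride droplets.

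Single-cell RNA-seq was carried out on lung cells from 1 control mouse and 1 *Gli1 HHIPCKO* mouse at postnatal day 14, with 1 library each. Both mice carried *Gli1 creER/+* and *Hhip flox/flox*, so the control also carried the Cre allele. The *Gli1 HHIPCKO* mouse was injected daily with tamoxifen in the first days after birth only, and oil was given to the control. *Gli1*-driven CreER limits the deletion of *Hhip*, a gene for a Hedgehog-binding protein, to cells that expressed *Gli1* and to their descendants. Sorted stromal and epithelial cells were pooled at 3:1 before loading. The sample labels name a 3′ version 2 kit and Cell Ranger 3.1.0, while the methods of the study name a 5′ version 2 kit and the file headers Cell Ranger 6.1.0. Levels of different genes were therefore not compared with each other, beyond naming the most abundant marker of a class, since neither chemistry covers whole transcripts.

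The control library held 43291709 unique molecular identifiers (UMIs) in 10999 cells, the median cell having 3531 UMIs and 1564 genes. The *Gli1 HHIPCKO* library held 52338969 UMIs in 12350 cells, the median cell having 3720 UMIs and 1699 genes. The libraries shared 193 cell barcodes, 1.75% of the control barcodes and 1.56% of the *Gli1 HHIPCKO* barcodes. *Xist*, transcribed from the inactive X chromosome of females, had a UMI in 12 control cells (0.110%, exact binomial 95% interval 0.0568 to 0.192%) and in 6866 *Gli1 HHIPCKO* cells (56.7%, 55.8 to 57.6%). The Y-linked gene *Ddx3y* had a UMI in 1302 control cells (11.9%, 11.3 to 12.5%) and in 0 of 12115 *Gli1 HHIPCKO* cells. By these genes the control mouse was male and the *Gli1 HHIPCKO* mouse female, so the *Hhip* deletion, tamoxifen, sex and the individual mouse cannot be told apart in any ratio.

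Of these cells, 10917 control and 12115 *Gli1 HHIPCKO* cells were kept and clustered with both libraries together. Clusters were named from marker genes, and the classes followed are those called AT2-like, alveolar fibroblast-like, alveolar myofibroblast-like (ALMF-like), ductal myofibroblast-like (DMF-like) and adventitial fibroblast-like. AT2-like clusters held 3282 control and 2974 *Gli1 HHIPCKO* cells, and alveolar fibroblast-like clusters held 505 and 1769. ALMF-like clusters held 1287 and 984 cells, DMF-like clusters 1233 and 1361, and adventitial fibroblast-like clusters 819 and 880. Clusters without a name held 19.1% of the kept control cells and 19.4% of the kept *Gli1 HHIPCKO* cells, and gave no class values. Among these were clusters without a marker of their best class among their 10 leading genes, such as 1 of 1 control and 398 *Gli1 HHIPCKO* cells closest to DMF-like and 1 of 273 and 8 cells closest to ALMF-like, both led by immediate early genes such as *Ier3* and *Zfp36*. Smaller classes, pericyte-like (468 and 786 cells), peribronchial fibroblast- and airway smooth muscle-like, mesothelial-like, ciliated-like, endothelial-like and red cell-like, were not followed further, and at most 10 of the 34 genes could be read in any 1 of them. In 4 of the 5 classes followed every class marker was at 100 CPM (UMIs per 1000000 UMIs of the class and library) or more in both libraries, and in ALMF-like cells 10 of 10 markers were in control and 9 of 10 in *Gli1 HHIPCKO* cells. Markers of other classes also differed between the libraries. In ALMF-like cells 8 of the 12 DMF markers were at 100 CPM or more in control and 10 in *Gli1 HHIPCKO* cells, with summed levels of 2173.5 and 4079.8 CPM, *Sema3c* and *Wnt5a* being the most abundant. Alveolar fibroblast markers in ALMF-like cells summed to 359 and 1352 CPM, with 1 and 2 of 14 at 100 CPM or more and *Mfap4* the most abundant at 197 and 899 CPM, and adventitial markers summed to 91.1 and 263 CPM. Vascular smooth muscle markers, mostly *Eln*, summed to 23398 and 35300.0 CPM in DMF-like and to 14358 and 9114 CPM in adventitial fibroblast-like cells, *Eln* alone giving 20994 and 28452 CPM and 13249 and 7352 CPM. Of the DMF markers, 2 of 12 in control and 6 in *Gli1 HHIPCKO* adventitial fibroblast-like cells were at 100 CPM or more (summed 916 and 1294 CPM, *Aspn* the most abundant). Red cell markers, mostly *Hbb-bs*, summed to 427 and 883 CPM in ALMF-like and to 409 and 905 CPM in alveolar fibroblast-like cells. In AT2-like cells markers of AT1-like cells, mostly *Ager*, summed to 1502 and 1018 CPM and those of club-like cells to 439 and 282 CPM, and their part in the AT2-like ratios was not tested.

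Many clusters came almost wholly from 1 library. The *Gli1 HHIPCKO* ALMF-like cells lay mostly in a cluster of 8 control and 931 *Gli1 HHIPCKO* cells, and the control ALMF-like cells in clusters of 666 and 11 and of 613 and 42 cells. DMF-like cells were split in the same way between clusters of 10 and 1111, 742 and 10, and 395 and 4 cells, beside a cluster of 86 and 236. Alveolar fibroblast-like cells lay in clusters of 21 and 648, 11 and 656, and 311 and 12 cells, beside smaller clusters with 114 and 274 and with 48 and 179 cells. In the last of these, scrublet called 93.8% of control cells and 96.1% of *Gli1 HHIPCKO* cells doublets. AT2-like cells formed a cluster led by *Sftpc* with 2527 control and 335 *Gli1 HHIPCKO* cells, a cluster led by *Lcn2* and *Chil1* with 251 and 2404 cells, and a shallow cluster with 504 and 235 cells. Adventitial fibroblast-like cells came from both libraries in their larger clusters, with 351 and 420, 253 and 277, and 191 and 105 cells, beside a cluster of 24 and 78 of which scrublet called 94.9% of the *Gli1 HHIPCKO* cells doublets. Where a class was divided by library in this way, a change within a kind of cell and a change in which cells made up the class cannot be told apart.

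*Hhip*, the deleted gene, was at 2289.6 CPM (2237 to 2343) in control DMF-like cells and at 439 CPM (418 to 461) in *Gli1 HHIPCKO* DMF-like cells. Parentheses after levels and log2 ratios hold 95% intervals, exact Poisson for levels and exact binomial for ratios, and these cover counting error only. The log2 ratio of *Gli1 HHIPCKO* over control was −2.38 (−2.46 to −2.31), so *Hhip* fell in DMF-like cells but was still detected, and the ratio was −3.20 with no genes held out of clustering. *Hhip* fell by 1.20 on the log2 scale in alveolar fibroblast-like cells, from 181 to 78.6 CPM, and by 1.51 in adventitial fibroblast-like cells, from 162 to 56.7 CPM. Similar levels and falls were read in pericyte-like (116 and 40.4 CPM), ciliated-like (110 and 24.4 CPM) and red cell-like cells (136 and 44.0 CPM). The part of free RNA and doublets in the *Hhip* levels outside DMF-like cells was not tested. The adventitial ratio was −0.65 with each library clustered on its own. ALMF-like cells had 270.1 CPM in control cells and 199 CPM in *Gli1 HHIPCKO* cells, a log2 ratio of −0.44, which was −1.16 with each library clustered on its own and −1.41 with no genes held out, and −1.81 together with DMF-like cells. AT2-like cells held 54 and 26 *Hhip* UMIs, below the minimum used for ratios.

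A ratio was read only where a gene had at least 100 UMIs over both libraries in a class, and a gene was counted as higher or lower when its log2 ratio was 0.5 or more, or −0.5 or less. No p-values were computed, as each condition had 1 mouse. Of the 34 genes, 18 reached the minimum in all 5 classes, 2 in 4 classes, 3 in 3, 3 in 2 and 7 in 1. The remaining gene, *Pparg*, which encodes a nuclear receptor of fat-storing cells, reached it in none of the 5, with 26 and 49 UMIs in AT2-like cells and 12 and 21 in alveolar fibroblast-like cells. The enzymes *Mvd*, *Idi1*, *Sqle*, *Lss*, *Dhcr7* and *Nsdhl* reached it in AT2-like cells alone, and the elongase gene *Elovl6* in alveolar fibroblast-like cells alone.

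In AT2-like cells 2 of the 32 genes that reached the minimum were higher (6.25%, against 5.99% of all genes tested) and 3 were lower (9.38%, against 5.43%). The share of higher genes in AT2-like cells lay near the background, so it is not a result about these genes. The other shares here rest on few genes each, and no result about the list is read from them either. In alveolar fibroblast-like cells 3 of 23 were higher (13.0%, against 9.24%) and 5 were lower (21.7%, against 7.61%). In ALMF-like cells 4 of 23 were higher (17.4%, against 8.02%) and 4 were lower (17.4%, against 8.3%). For DMF-like cells the counts were 3 of 22 higher (13.6%, against 8.59%) and 3 lower (13.6%, against 7.47%). Adventitial fibroblast-like cells had 0 of 20 higher (against 9.11%) and 3 lower (against 6.29%). With ALMF-like and DMF-like cells together, which was chosen after seeing the data, 3 of 28 were higher (10.7%, against 7.91%) and 3 lower (10.7%, against 7.52%). The median log2 ratio of the genes tested from the list was −0.07 in AT2-like, −0.21 in alveolar fibroblast-like, −0.12 in ALMF-like, −0.04 in DMF-like and −0.21 in adventitial fibroblast-like cells. Over all genes tested the median lay between −0.03 and 0.01 in these classes. The minimum is on the sum of both libraries, so a gene near it can reach it only through the library where it is higher. *Dgat2* in AT2-like, *Acsl4* in alveolar fibroblast-like and *Fdps* in adventitial fibroblast-like cells were among such genes. The same minimum was used for all genes tested. These counts describe the list, and no test of the list was made.

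**Figure D1:**
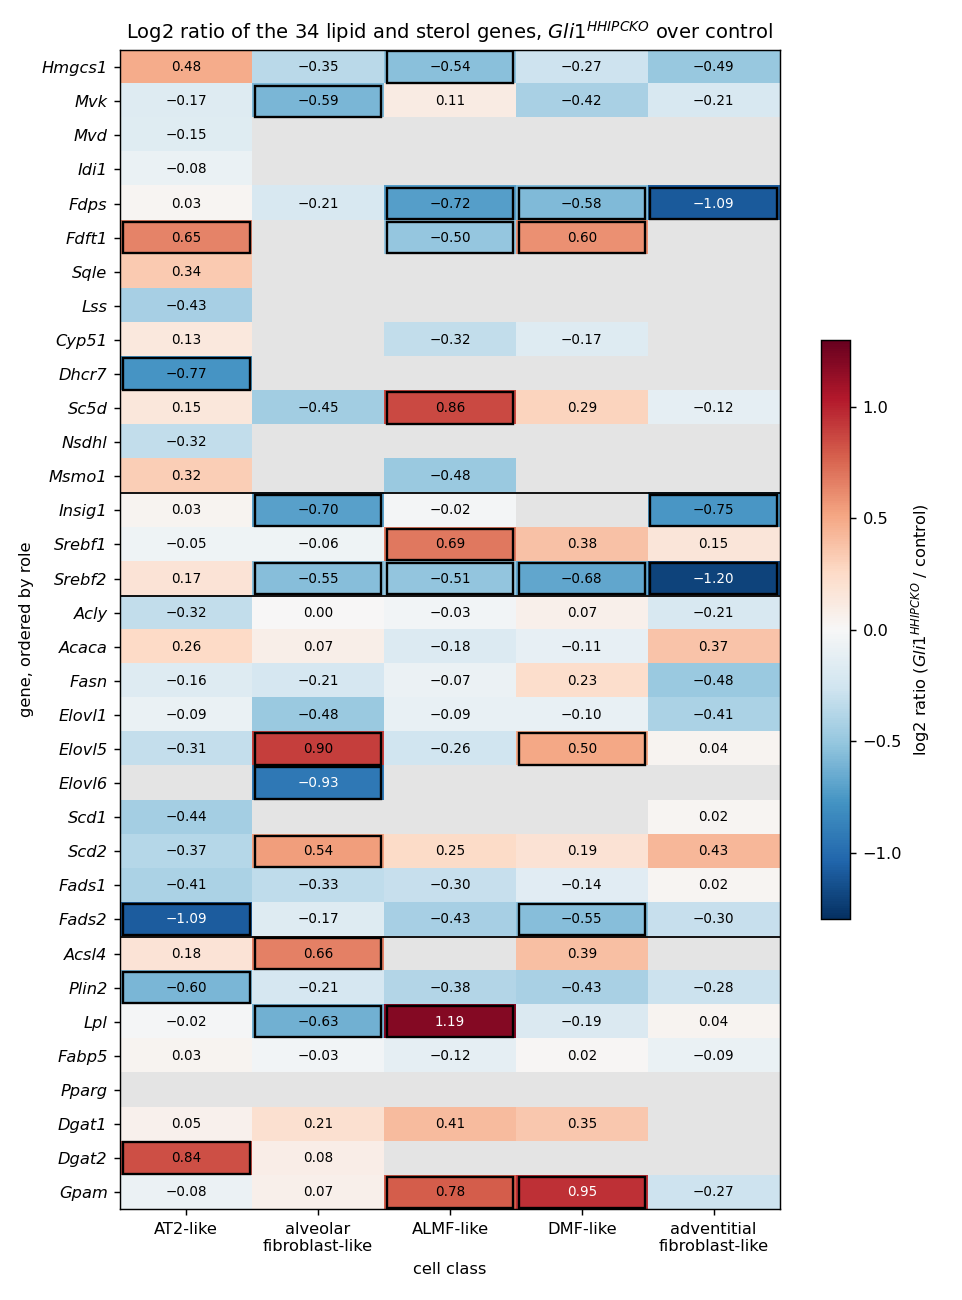
Log2 ratio of *Gli1 HHIPCKO* over control for each of the 34 genes (rows, by role) in 5 cell classes (columns), red where higher and blue where lower in *Gli1 HHIPCKO* cells, with black frames at 0.5 or more and −0.5 or less and grey where fewer than 100 UMIs were counted. *Srebf2* is framed in blue in the 4 stromal classes and stands at 0.17 in AT2-like cells.

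Most of the 34 genes had their highest level of the 5 classes in AT2-like cells. This held in both libraries for 22 genes, and for 17 of them the interval lay apart from that of the next class in both libraries, *Fasn*, *Scd1*, *Fabp5*, *Srebf2*, *Hmgcs1* and *Fdps* among them. Alveolar fibroblast-like cells were highest for 8 genes in both libraries, with intervals apart from the next class for 5, namely *Sc5d*, *Fads1*, *Plin2*, *Dgat2* and *Gpam*. *Lpl* was highest in adventitial fibroblast-like cells and *Dhcr7* in ALMF-like cells, the latter with overlapping intervals. The highest class of *Mvk* and of *Dgat1* differed between the libraries. AT2-like sums held 14891165 and 16911289 UMIs, against 1742332 to 6548795 in the stromal classes, so AT2-like intervals are narrower at a given level. No share over all genes stands beside these counts of the highest class or of intervals apart, so they describe the list only.

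RNA of AT2s was counted in the stromal classes of both libraries, and free RNA and doublets were not told apart as its source. *Sftpc*, the surfactant protein gene that marks AT2s, was at 0.619 to 0.825% of its AT2-like level in the 4 stromal classes of the control library, and at 0.387 to 0.533% of it in the *Gli1 HHIPCKO* library. Of the 9 AT2 markers, 2 were at 100 CPM or more in each stromal class of each library, and their summed level in ALMF-like cells, most of it *Sftpc*, was 2308 CPM in control cells and 1439 CPM in *Gli1 HHIPCKO* cells. AT2 RNA at the *Sftpc* ratio would give 85.5% of the *Scd1* level measured in control ALMF-like cells and 53.5% of that in *Gli1 HHIPCKO* ALMF-like cells. For *Fabp5* the same shares were 55.7 and 41.7% in ALMF-like cells, and 56.0 and 36.5% in DMF-like cells. No stromal ratio of either gene that could be read passed the fold. The corresponding share of *Srebf2* was at most 2.76% in the 4 stromal classes of either library, and that of *Fdps* at most 4.92%. The part of AT2 RNA in the stromal ratios was not tested.

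Among the regulators, *Srebf2* (ENSMUSG00000022463, chr15:82147181-82205379 on GRCm38) encodes the SREBP that mainly drives sterol synthesis. In adventitial fibroblast-like cells it was at 37.8 CPM (31.4 to 45.0) in the control library and at 16.4 CPM (12.3 to 21.4) in the *Gli1 HHIPCKO* library. The intervals did not overlap, and *Srebf2* fell with a log2 ratio of −1.20 (−1.69 to −0.73). *Srebf2* in DMF-like cells was at 37.5 CPM (31.0 to 44.9) and 23.4 CPM (18.8 to 28.9), a log2 ratio of −0.68 (−1.09 to −0.26). *Srebf2* also fell in alveolar fibroblast-like cells, from 31.6 to 21.5 CPM at a log2 ratio of −0.55 (−1.01 to −0.08), and in ALMF-like cells, from 34.8 to 24.4 CPM at a log2 ratio of −0.51 (−0.93 to −0.10). *Srebf2* was thus lower in the 4 stromal classes followed. Pericyte-like cells, where 8 of the 34 genes could be read, had 52.3 and 43.4 CPM of *Srebf2*, inside the fold at −0.27, and those 8 genes had a median log2 ratio of 0.05, with 0.04 over all genes tested. For *Srebf2*, AT2-like cells had 80.5 CPM (76.0 to 85.2) in control and 90.8 CPM (86.3 to 95.4) in *Gli1 HHIPCKO* cells, a log2 ratio of 0.17. Over the alternative settings its ratio was negative in each of the 4 stromal classes followed and was −0.99 or lower in adventitial fibroblast-like cells, ranging from −0.67 to −0.54 in alveolar fibroblast-like, from −1.03 to −0.38 in DMF-like and from −0.61 to −0.41 in ALMF-like cells. The ratio of −0.38 in DMF-like and of −0.41 in ALMF-like cells, short of the fold, came with each cell thinned to 2000 UMIs. In ALMF-like cells *Srebf2* was also short of the fold, at −0.42, when each cell counted alike, at −0.48 with the median of ratios and at −0.49 with no genes held out.

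*Insig1* (ENSMUSG00000045294, chr5:28071363-28078662) encodes an endoplasmic reticulum protein that retains SREBPs and is itself induced by them. In adventitial fibroblast-like cells it was at 36.8 CPM (30.5 to 44.0) in control and 21.8 CPM (17.1 to 27.5) in *Gli1 HHIPCKO* cells, a log2 ratio of −0.75 (−1.20 to −0.32). The alveolar fibroblast-like level was 36.7 CPM (28.3 to 46.9) in control and 22.6 CPM (19.1 to 26.5) in *Gli1 HHIPCKO* cells, a log2 ratio of −0.70 (−1.13 to −0.25). *Insig1* thus fell in both fibroblast classes outside the myofibroblasts, and did so under each alternative that gave a value. ALMF-like cells had 22.2 and 21.9 CPM and AT2-like cells 65.5 and 67.0 CPM, with log2 ratios of −0.02 and 0.03. In DMF-like cells *Insig1* missed the minimum by count, with 48 and 44 UMIs.

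*Srebf1* encodes the SREBP that mainly drives fatty acid synthesis. It was at 25.4 CPM (20.8 to 30.8) in control ALMF-like cells and at 40.9 CPM (34.2 to 48.6) in *Gli1 HHIPCKO* ALMF-like cells. *Srebf1* therefore rose there, with a log2 ratio of 0.69 (0.30 to 1.07), but the ratio was 0.19 with each library clustered on its own. The other 4 classes had *Srebf1* ratios from −0.06 in alveolar fibroblast-like to 0.38 in DMF-like cells, inside the fold. The DMF-like ratio of *Srebf1* was 0.60 with each library clustered on its own and −0.09 with no genes held out. *Srebf1* and *Srebf2* therefore differed in direction in ALMF-like cells, where *Srebf2* was lower and *Srebf1* higher, a contrast that was not tested.

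**Figure D2:**
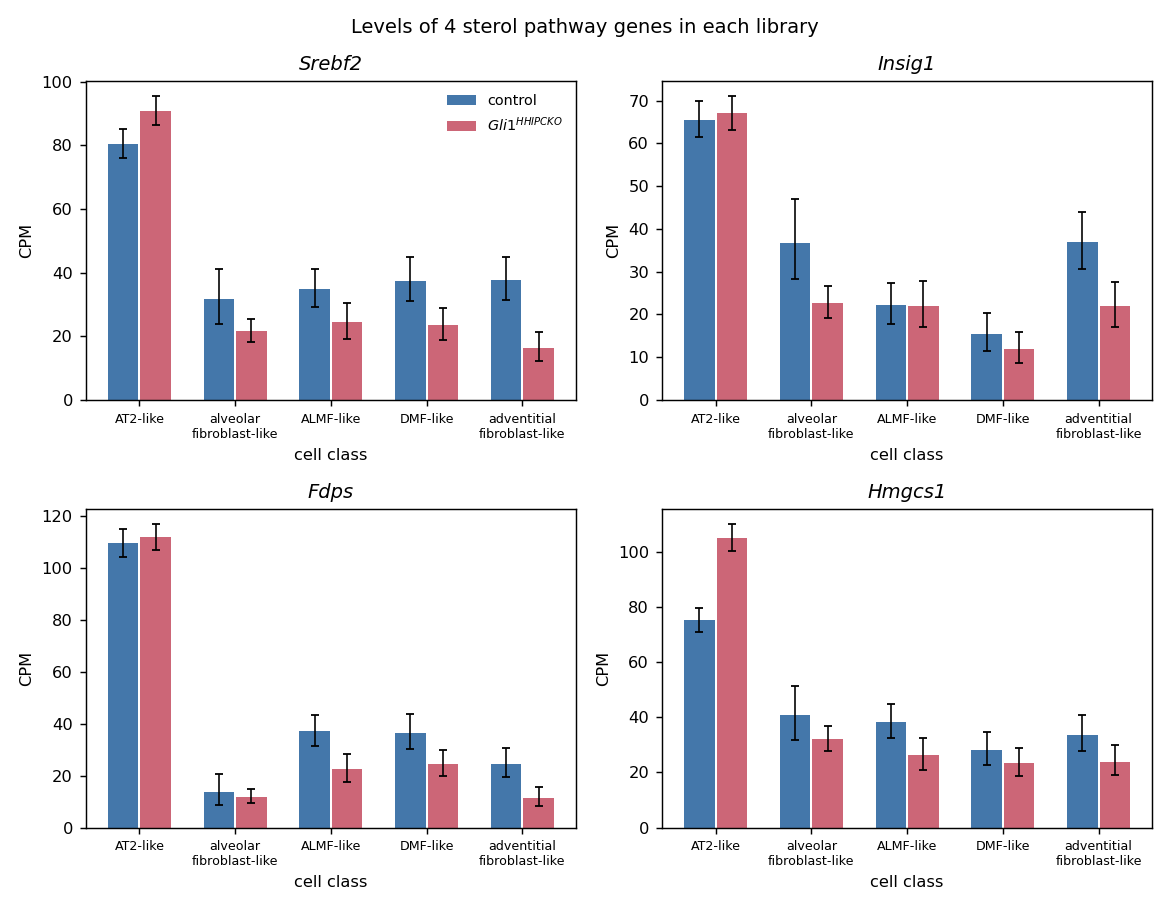
Levels of *Srebf2*, *Insig1*, *Fdps* and *Hmgcs1* in CPM (vertical axes, from 0) in 5 cell classes, with control in blue, *Gli1 HHIPCKO* in red and exact Poisson 95% intervals as bars. In adventitial fibroblast-like cells the *Srebf2* level was 37.8 CPM in control cells and 16.4 CPM in *Gli1 HHIPCKO* cells.

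Of the 13 sterol synthesis enzymes, 4 reached the minimum in adventitial fibroblast-like cells, and all 4 had log2 ratios below 0, where 51.2% of all genes tested were above 0. Summed over the 13 genes, their level was 187 CPM in control cells and 124 CPM in *Gli1 HHIPCKO* adventitial fibroblast-like cells, a log2 ratio of −0.59 (−0.77 to −0.40). That summed ratio was −0.17 with each library clustered on its own, where the median of all genes tested moved to 0.10, and −0.42 and −0.35 within the largest clusters. *Fdps* (ENSMUSG00000059743, chr3:89093588-89101959), which makes the farnesyl diphosphate that feeds both sterols and protein prenylation, was at 24.6 CPM (19.5 to 30.6) in control and 11.5 CPM (8.16 to 15.8) in *Gli1 HHIPCKO* adventitial fibroblast-like cells. Its intervals were apart, and *Fdps* fell with a log2 ratio of −1.09 (−1.69 to −0.52). *Hmgcs1*, which makes HMG-CoA at the start of the mevalonate pathway, had 33.8 CPM (27.8 to 40.7) and 24.0 CPM (19.0 to 29.9) there, a log2 ratio of −0.49 that lay just inside the fold and was −0.77 when each cell counted alike. Below the minimum, and named after their values were seen, the demethylase gene *Cyp51* had 56 and 26 UMIs and the oxidase gene *Msmo1* 57 and 28 in adventitial fibroblast-like cells. No ratio was read for either gene there. The other enzymes below the minimum there ranged from *Nsdhl*, at 5.83 and 5.16 CPM, to *Sqle*, at 3.07 and 0.607 CPM.

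In ALMF-like cells 7 sterol enzymes reached the minimum, of which 3 were lower and 1 was higher, beside the 8.3% and 8.02% of all genes given above. *Fdps* fell from 37.0 CPM (31.3 to 43.4) to 22.5 CPM (17.6 to 28.4), a log2 ratio of −0.72 (−1.15 to −0.30) that was −0.40 with thinned cells and −0.45 with each library clustered on its own. *Hmgcs1* (ENSMUSG00000093930, chr13:119690379-119708260) fell from 38.3 CPM (32.5 to 44.8) to 26.3 CPM (21.0 to 32.6), a log2 ratio of −0.54 (−0.94 to −0.15). For *Hmgcs1* the control and *Gli1 HHIPCKO* intervals overlapped at their ends, and its ratio was −0.30 when each cell counted alike and −0.45 together with DMF-like cells. *Fdft1*, which encodes squalene synthase, was at 30.1 CPM in control cells and 21.3 CPM in *Gli1 HHIPCKO* cells of this class, a log2 ratio of −0.50 (−0.95 to −0.06) at the edge of the fold, which most alternatives brought inside it. *Sc5d*, a desaturase gene near the end of the pathway, went the other way and rose from 10.9 CPM (7.89 to 14.6) to 19.7 CPM (15.1 to 25.2), a log2 ratio of 0.86 (0.28 to 1.45). *Msmo1* had 21.2 and 15.2 CPM, a log2 ratio of −0.48 that was 0.30 with each library clustered on its own. Summed over the 13 enzymes, ALMF-like levels were 223 CPM in control cells and 169.7 CPM in *Gli1 HHIPCKO* cells, a log2 ratio of −0.40 (−0.55 to −0.24).

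DMF-like cells had 6 sterol enzymes at the minimum, with 1 lower and 1 higher, where 7.47% and 8.59% of all genes were. *Fdps* was lower again, at 36.5 CPM (30.1 to 43.8) in control and 24.5 CPM (19.7 to 30.1) in *Gli1 HHIPCKO* DMF-like cells, a log2 ratio of −0.58 (−0.99 to −0.16) that was −0.41 with thinned cells and −0.47 with no genes held out. *Fdft1* was at 16.0 CPM (11.9 to 21.1) in control and 24.2 CPM (19.5 to 29.8) in *Gli1 HHIPCKO* DMF-like cells, a log2 ratio of 0.60 (0.08 to 1.13) that was 0.35 at the lower resolution and 0.36 with each library clustered on its own. *Fdft1* thus stood higher in DMF-like and lower in ALMF-like cells of the *Gli1 HHIPCKO* library, and with both classes together its ratio was −0.07. In alveolar fibroblast-like cells 4 enzymes reached the minimum, all with log2 ratios below 0, from −0.59 to −0.21, where 51.5% of all genes tested were above 0. *Mvk*, which encodes mevalonate kinase, was the 1 past the fold, at 24.7 CPM (17.9 to 33.2) in control and 16.3 CPM (13.4 to 19.7) in *Gli1 HHIPCKO* cells, and its ratio was −0.34 when each cell counted alike, −0.41 with libraries clustered apart and −0.49 without scrublet doublets. *Fdps* in alveolar fibroblast-like cells, at −0.21 in the main analysis, was −0.59 when each cell counted alike. *Sc5d* had its highest level of the 5 classes in these cells, 117 CPM (101 to 134) in control and 85.4 CPM (78.4 to 92.7) in *Gli1 HHIPCKO* cells, a log2 ratio of −0.45.

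All 13 sterol enzymes reached the minimum in AT2-like cells, where 7 had log2 ratios above 0 and 6 below. Their summed level there was 448 CPM in control cells and 501 CPM in *Gli1 HHIPCKO* cells, a log2 ratio of 0.16 (0.11 to 0.21). The larger AT2-like clusters came mostly from 1 library each. A change within clusters and a change in their shares therefore cannot be told apart in this sum. *Fdft1* (ENSMUSG00000021273, chr14:63145150-63179578) rose from 39.0 CPM (35.9 to 42.3) to 61.0 CPM (57.4 to 64.9), a log2 ratio of 0.65 (0.50 to 0.79), and *Hmgcs1* had 75.3 and 105 CPM, a log2 ratio of 0.48. Both ratios were smaller within single clusters. In the cluster led by *Sftpc*, *Fdft1* had 38.2 and 51.6 CPM and a log2 ratio of 0.43 (0.08 to 0.77), and in the cluster led by *Lcn2* 49.6 and 62.0 CPM and 0.32 (−0.02 to 0.69). *Hmgcs1* had 74.2 and 74.7 CPM in the *Sftpc* cluster and 92.3 and 109.6 CPM in the *Lcn2* cluster, with log2 ratios of 0.01 and 0.25. *Dhcr7*, which encodes the reductase of the last step to cholesterol, was lower in *Gli1 HHIPCKO* AT2-like cells, at 7.25 CPM (5.95 to 8.76) and 4.26 CPM (3.33 to 5.36), a log2 ratio of −0.77 that was −0.42 within the *Sftpc* cluster. *Lss*, which encodes the cyclase that makes lanosterol, had 12.6 and 9.34 CPM in AT2-like cells, a log2 ratio of −0.43, and ratios of −0.76 and −0.77 within these clusters. The X-linked dehydrogenase gene *Nsdhl* had 15.6 and 12.5 CPM, a log2 ratio of −0.32, which was −0.61 within the *Lcn2* cluster, and for this gene the sex of the mouse and the *Hhip* deletion cannot be told apart. *Sqle*, the squalene epoxidase gene, had 13.3 and 16.9 CPM in AT2-like cells, a log2 ratio of 0.34 that was 0.59 within the *Sftpc* cluster. *Msmo1* had 28.4 and 35.4 CPM, *Cyp51* 27.9 and 30.6 CPM and *Sc5d* 15.4 and 17.1 CPM in these cells. Within the *Lcn2* cluster *Sc5d* was the 1 gene of the list past the fold upward, at 0.57 (−0.14 to 1.37), and in the *Sftpc* cluster it was at −0.09. The isomerase gene *Idi1* had 77.4 and 73.1 CPM, the decarboxylase gene *Mvd* 10.0 and 8.99 CPM, *Fdps* 109.5 and 112 CPM and *Mvk* 16.3 and 14.4 CPM. All 8 of these genes were inside the fold for the class, with log2 ratios from −0.17 for *Mvk* to 0.34 for *Sqle*.

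The promoters of *Srebf2*, *Insig1* and *Hmgcs1* are shown because each gene was past the fold and lower in at least 1 stromal class, and because sterol promoters are known to carry SREBP elements beside CCAAT boxes. The windows cover 250 bases before to 50 after the RefSeq start on GRCm38.p6, 5′ to 3′ on the plus strand, at chr15:82147019-82147318, chr5:28071162-28071461 and chr13:119690101-119690400. Capitals mark CCAAT on either strand, which reads ATTGG on the other, and TCACNCCAC, a sterol regulatory element, on either strand.
Srebf2: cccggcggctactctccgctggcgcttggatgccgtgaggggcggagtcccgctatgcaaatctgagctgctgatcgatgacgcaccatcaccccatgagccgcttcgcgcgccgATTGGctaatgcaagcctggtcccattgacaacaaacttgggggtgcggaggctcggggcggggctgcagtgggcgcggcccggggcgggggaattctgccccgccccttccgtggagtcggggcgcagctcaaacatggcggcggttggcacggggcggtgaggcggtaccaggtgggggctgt
Insig1: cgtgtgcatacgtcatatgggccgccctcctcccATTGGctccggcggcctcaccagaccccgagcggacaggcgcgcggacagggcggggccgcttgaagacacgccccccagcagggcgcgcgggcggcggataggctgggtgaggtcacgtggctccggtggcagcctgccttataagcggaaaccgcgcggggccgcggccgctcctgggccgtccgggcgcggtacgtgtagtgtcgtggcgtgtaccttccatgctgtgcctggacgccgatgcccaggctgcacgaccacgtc
Hmgcs1: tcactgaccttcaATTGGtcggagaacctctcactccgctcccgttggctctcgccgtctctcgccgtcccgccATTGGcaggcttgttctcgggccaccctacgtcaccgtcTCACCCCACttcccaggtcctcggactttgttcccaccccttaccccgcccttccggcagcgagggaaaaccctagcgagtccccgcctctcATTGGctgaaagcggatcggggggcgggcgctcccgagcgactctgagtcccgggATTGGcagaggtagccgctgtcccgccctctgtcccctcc
The RefSeq table held windows for 24 of the 34 genes and for 27025 genes in all. TCACNCCAC was found for 1 of the 24, *Hmgcs1*, and for 388 genes in all (1.44%). CCAAT was found for 20 of the 24 and for 11096 genes in all (41.1%). A match describes the letters of the window and is neither a shown binding site nor a cause. The table had no window for *Fdps*, *Fdft1*, *Sqle*, *Scd1*, *Scd2*, *Fads1*, *Lpl*, *Fabp5*, *Dgat1* and *Dgat2*.

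In AT2-like cells, 8 of the 9 genes of fatty acid synthesis, elongation and desaturation that reached the minimum had log2 ratios below 0, with a median of −0.32, but only *Fads2* passed the fold, and of all genes tested 49.7% were above 0. Their summed level was 2539.9 CPM in control cells and 2065 CPM in *Gli1 HHIPCKO* cells, a log2 ratio of −0.30 (−0.32 to −0.28). *Fads2* (ENSMUSG00000024665, chr19:10062765-10101746), which encodes the delta-6 desaturase of polyunsaturated fatty acids, was at 30.8 CPM (28.0 to 33.7) in control and 14.5 CPM (12.7 to 16.4) in *Gli1 HHIPCKO* AT2-like cells. The intervals were far apart, and *Fads2* fell with a log2 ratio of −1.09 (−1.32 to −0.86). Within the *Sftpc* cluster its ratio was −1.57 (−2.36 to −0.87) and within the *Lcn2* cluster −0.92 (−1.41 to −0.40). *Fads1*, which encodes the delta-5 desaturase and also lies on chromosome 19, had 48.7 CPM (45.2 to 52.4) and 36.7 CPM (33.8 to 39.7), a log2 ratio of −0.41 in the class, −0.70 in the *Sftpc* cluster and −0.59 in the *Lcn2* cluster.

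*Scd1* (ENSMUSG00000037071, chr19:44394455-44407879), which encodes a desaturase that makes monounsaturated fatty acids, was at 1115 CPM (1098 to 1132) in control and 821 CPM (807 to 835) in *Gli1 HHIPCKO* AT2-like cells, a log2 ratio of −0.44 (−0.47 to −0.41). The ratio lay inside the fold for the class but past it within each of the larger clusters. In the *Sftpc* cluster *Scd1* had 1085 CPM in control cells and 665 CPM in *Gli1 HHIPCKO* cells, a log2 ratio of −0.71 (−0.80 to −0.62). In the *Lcn2* cluster it had 1368 and 838 CPM, a log2 ratio of −0.71 (−0.78 to −0.64). This cluster had the higher *Scd1* level in both libraries and held most of the *Gli1 HHIPCKO* AT2-like cells, while the *Sftpc* cluster held most of the control cells. *Acly*, which makes cytosolic acetyl-CoA from citrate, had 154 and 123 CPM in the class, a log2 ratio of −0.32, with −0.58, −0.47 and −0.52 within the *Sftpc*, *Lcn2* and shallow clusters. *Fasn*, the fatty acid synthase gene, had 479 and 428 CPM, a log2 ratio of −0.16, with −0.38, −0.33 and −0.10 within the same clusters. The desaturase gene *Scd2* had 237 and 184 CPM and the elongase gene *Elovl5* 43.9 and 35.5 CPM, with log2 ratios of −0.37 and −0.31, and *Elovl5* was at 0.10 within the *Lcn2* cluster. *Elovl1*, which extends very long chain fatty acids, had 367 and 346 CPM, a log2 ratio of −0.09. *Acaca*, which encodes acetyl-CoA carboxylase, was the 1 gene of this group above 0, at 64.4 and 77.0 CPM and a log2 ratio of 0.26 (0.14 to 0.38), with −0.01 in the *Sftpc* cluster, 0.19 in the *Lcn2* cluster and 0.69 (0.14 to 1.23) in the shallow cluster.

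Within the *Sftpc* cluster 6 of 31 genes of the list were lower (19.4%) and 1 was higher (3.23%), where 11.2% and 5.72% of all genes tested were. Within the *Lcn2* cluster the counts were 6 of 30 lower and 1 higher (3.33%), where 8.07% and 10.1% of all genes tested were. Lower in both of these clusters were *Lss*, *Scd1*, *Fads1*, *Fads2* and *Plin2*, the interval of *Lss* in the *Sftpc* cluster (−1.75 to 0.08) including 0. The shallow cluster had 11 genes at the minimum, with 1 lower and 1 higher (9.09% each), where 7.33% and 17.0% of all genes tested were.

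**Figure D3:**
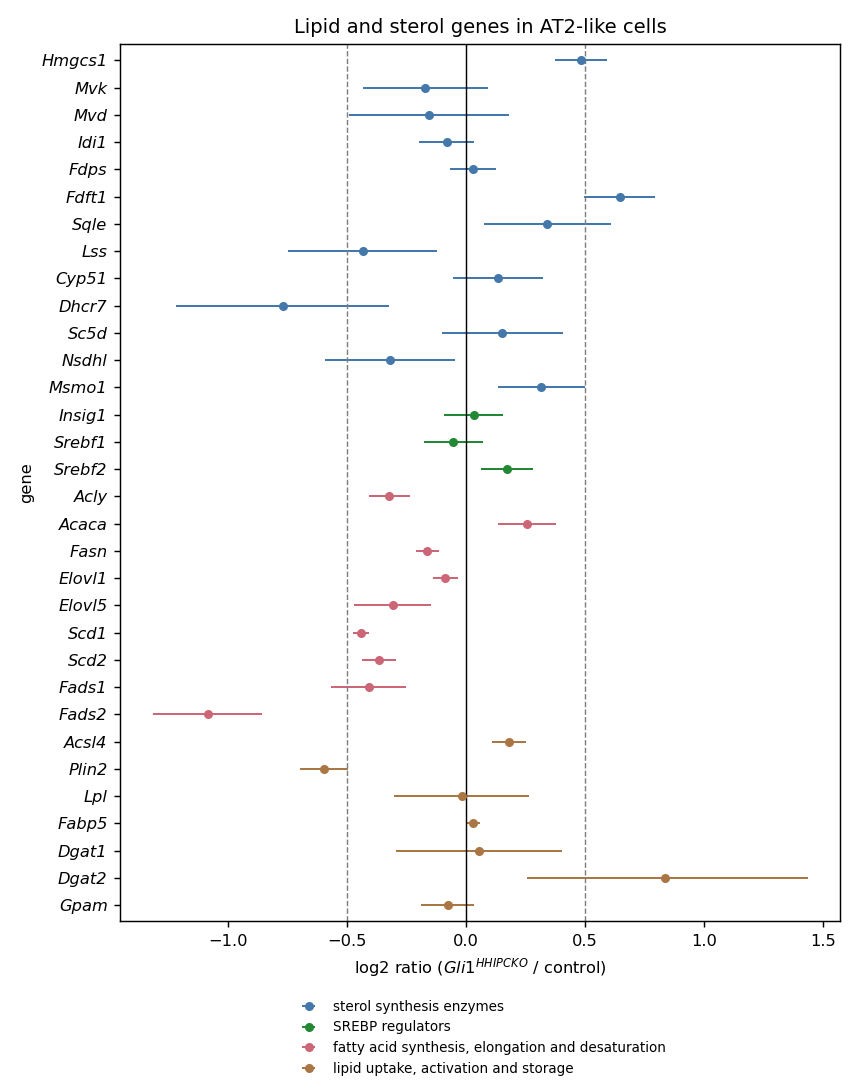
Log2 ratio of *Gli1 HHIPCKO* over control in AT2-like cells (horizontal axis) for the 32 genes that reached 100 UMIs, with exact binomial 95% intervals as bars, dashed lines at −0.5 and 0.5 and colours by role. Of the fatty acid genes only *Acaca* lies above 0.

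Of the fatty acid genes, 2 of 9 were higher and 1 lower in alveolar fibroblast-like cells, where 9.24% and 7.61% of all genes were. In DMF-like cells 1 of 8 was higher and 1 lower, where 8.59% and 7.47% of all genes were. None was past the fold in ALMF-like or adventitial fibroblast-like cells. *Scd2* (ENSMUSG00000025203, chr19:44293674-44306864) was at 80.4 CPM (67.6 to 94.8) in control and 117 CPM (109 to 125) in *Gli1 HHIPCKO* alveolar fibroblast-like cells. *Scd2* therefore rose in these cells, with a log2 ratio of 0.54 (0.28 to 0.81) that came to 0.50 with a total without the most abundant genes. Adventitial fibroblast-like cells had 89.0 CPM (79.1 to 99.9) and 120.2 CPM (109 to 133) of *Scd2*, a log2 ratio of 0.43 in the class, and 0.57, 0.56 and 0.38 within the 3 larger clusters. All 4 stromal ratios of *Scd2* were above 0, while the AT2-like ratio was below 0. The DMF-like ratio of *Scd2*, 0.19 in the main analysis, was −0.04 with no genes held out.

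*Elovl5*, which elongates polyunsaturated fatty acids, rose in alveolar fibroblast-like cells from 12.1 CPM (7.46 to 18.4) to 22.4 CPM (19.0 to 26.4), a log2 ratio of 0.90 (0.23 to 1.63) that was 0.50 with each library clustered on its own. Its DMF-like level was 15.4 CPM in control cells and 21.8 CPM in *Gli1 HHIPCKO* cells, a log2 ratio of 0.50 (−0.03 to 1.05) at the edge of the fold, with an interval that included 0. With DMF-like and ALMF-like cells together that ratio was 0.13, and it was also short of the fold at resolution 0.5 and with the other totals, at 0.47 to 0.49. *Elovl6*, which extends saturated and monounsaturated chains of medium length, fell in alveolar fibroblast-like cells from 22.4 CPM (15.9 to 30.6) to 11.8 CPM (9.28 to 14.7), a log2 ratio of −0.93 (−1.50 to −0.33). It was nearly absent from AT2-like cells, with 3 UMIs over both libraries, whereas *Elovl5* was read in all 5 classes. *Fads2* was lower in DMF-like cells, at 50.6 CPM (43.0 to 59.1) in control and 34.5 CPM (28.7 to 41.0) in *Gli1 HHIPCKO* cells, a log2 ratio of −0.55 (−0.90 to −0.21) that was −0.49 with DMF-like and ALMF-like cells together and at resolution 0.5, and a little short of the fold with libraries clustered apart. All 5 class ratios of *Fads2* were below 0, and those inside the fold were −0.43 in ALMF-like, −0.30 in adventitial (−0.78 within the largest cluster) and −0.17 in alveolar fibroblast-like cells. *Fasn* was inside the fold in every stromal class and closest to it in adventitial fibroblast-like cells, with 76.4 and 54.6 CPM and a log2 ratio of −0.48, which was −0.86 within the largest adventitial cluster. *Elovl1* was closest to the fold in alveolar fibroblast-like cells, with 67.2 and 48.1 CPM and a log2 ratio of −0.48, which was −0.72 when each cell counted alike. Stromal ratios of *Acly* ran from −0.21 to 0.07 and those of *Acaca* from −0.18 to 0.37, and the lowest of *Acly*, in adventitial fibroblast-like cells, was 0.42 with thinned cells. *Fads1* was inside the fold in the 4 stromal classes, with log2 ratios from −0.33 in alveolar to 0.02 in adventitial fibroblast-like cells. With each library clustered on its own the ratio of *Fads1* was −0.59 in ALMF-like cells, against −0.30 in the main analysis, and −0.06 in alveolar fibroblast-like cells, where thinned cells gave −0.52.

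Of the uptake and storage genes, *Lpl* (ENSMUSG00000015568, chr8:68880491-68907448) encodes lipoprotein lipase, which frees fatty acids from circulating triglyceride. It was at 58.3 CPM (51.1 to 66.2) in control and 133 CPM (121 to 147) in *Gli1 HHIPCKO* ALMF-like cells. *Lpl* therefore rose there, with a log2 ratio of 1.19 (0.96 to 1.43), the highest of the list over the 5 classes. The size of that rise depended on which cells were named ALMF-like, since the ratio was 0.46 with each library clustered on its own, 0.53 with no genes held out of clustering and 0.40 with ALMF-like and DMF-like cells together. Summed DMF and alveolar fibroblast markers were also higher in the *Gli1 HHIPCKO* ALMF-like cells, as given above, and their part in the *Lpl* ratio and the other ALMF-like ratios was not tested. In alveolar fibroblast-like cells *Lpl* fell from 139 CPM (122 to 158) to 89.8 CPM (82.7 to 97.3), a log2 ratio of −0.63 (−0.85 to −0.41). DMF-like cells had 181 and 159 CPM and adventitial fibroblast-like cells 245 and 251 CPM, with log2 ratios of −0.19 and 0.04, the former becoming 0.40 once joined with ALMF-like cells. In AT2-like cells the level of *Lpl* was its lowest of the 5 classes, 13.3 and 13.1 CPM.

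*Gpam* (ENSMUSG00000024978, chr19:55067268-55127238) encodes the mitochondrial acyltransferase that starts triglyceride synthesis. In DMF-like cells it was at 17.6 CPM (13.3 to 22.9) in control and 33.9 CPM (28.3 to 40.4) in *Gli1 HHIPCKO* cells, a log2 ratio of 0.95 (0.48 to 1.43). In ALMF-like cells it was at 17.5 CPM (13.7 to 22.1) and 30.1 CPM (24.4 to 36.8), a log2 ratio of 0.78 (0.32 to 1.25) that was 0.39 with no genes held out of clustering. *Gpam* thus rose in both myofibroblast classes, and in DMF-like cells it stayed past the fold under all 9 alternatives that gave a value. Alveolar fibroblast-like cells, which had the highest level of *Gpam*, were at 139 and 145 CPM, a log2 ratio of 0.07. The adventitial fibroblast-like levels were 66.3 and 54.9 CPM, and their log2 ratio of −0.27 was 0.64 with each library clustered on its own.

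*Plin2* (ENSMUSG00000028494, chr4:86648386-86670060) encodes a coat protein of lipid droplets. In AT2-like cells it was at 127 CPM (121 to 132) in control and 83.6 CPM (79.3 to 88.1) in *Gli1 HHIPCKO* cells, a log2 ratio of −0.60 (−0.70 to −0.50). *Plin2* fell there, and the ratio was −0.64 within the *Sftpc* cluster and −0.82 within the *Lcn2* cluster. Its highest level of the 5 classes was in alveolar fibroblast-like cells, 242 CPM (219 to 266) in control and 208 CPM (197 to 219.6) in *Gli1 HHIPCKO* cells. All 4 stromal ratios of *Plin2* were below 0 and inside the fold, from −0.43 in DMF-like to −0.21 in alveolar fibroblast-like cells, and the adventitial ratio of −0.28 was 0.36 with each library clustered on its own. The DMF-like ratio of *Plin2* was −0.58 when each cell counted alike and −0.07 with no genes held out, and the alveolar ratio was −0.01 with libraries clustered apart. *Dgat2*, which makes triglyceride from diacylglycerol, was higher in *Gli1 HHIPCKO* AT2-like cells on few UMIs, 38 in control and 77 in *Gli1 HHIPCKO* cells, a log2 ratio of 0.84 (0.26 to 1.44). Its alveolar fibroblast-like level was 30.4 CPM in control cells and 32.2 CPM in *Gli1 HHIPCKO* cells. *Dgat1*, an enzyme gene of the same step, was inside the fold in the 4 classes where it reached the minimum, with log2 ratios from 0.05 in AT2-like to 0.41 in ALMF-like cells, the last 0.63 when each cell counted alike.

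*Acsl4*, an X-linked gene whose enzyme activates polyunsaturated fatty acids, was at 9.18 CPM (5.25 to 14.9) in control and 14.5 CPM (11.7 to 17.7) in *Gli1 HHIPCKO* alveolar fibroblast-like cells. The log2 ratio of *Acsl4* was 0.66 (−0.11 to 1.52), past the fold with an interval that included 0, and AT2 RNA at the *Sftpc* ratio would give 12.5% of the control level and 5.59% of the *Gli1 HHIPCKO* level. AT2-like cells had 185 and 209.9 CPM of *Acsl4*, a log2 ratio of 0.18. For *Acsl4* too, the sex of the mouse and the *Hhip* deletion cannot be told apart. *Fabp5*, which encodes a fatty acid binding protein, had 1282 CPM (1264 to 1300.2) in control and 1309 CPM (1292 to 1327) in *Gli1 HHIPCKO* AT2-like cells, and its ratios in the 5 classes lay between −0.12 and 0.03.

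**Figure D4:**
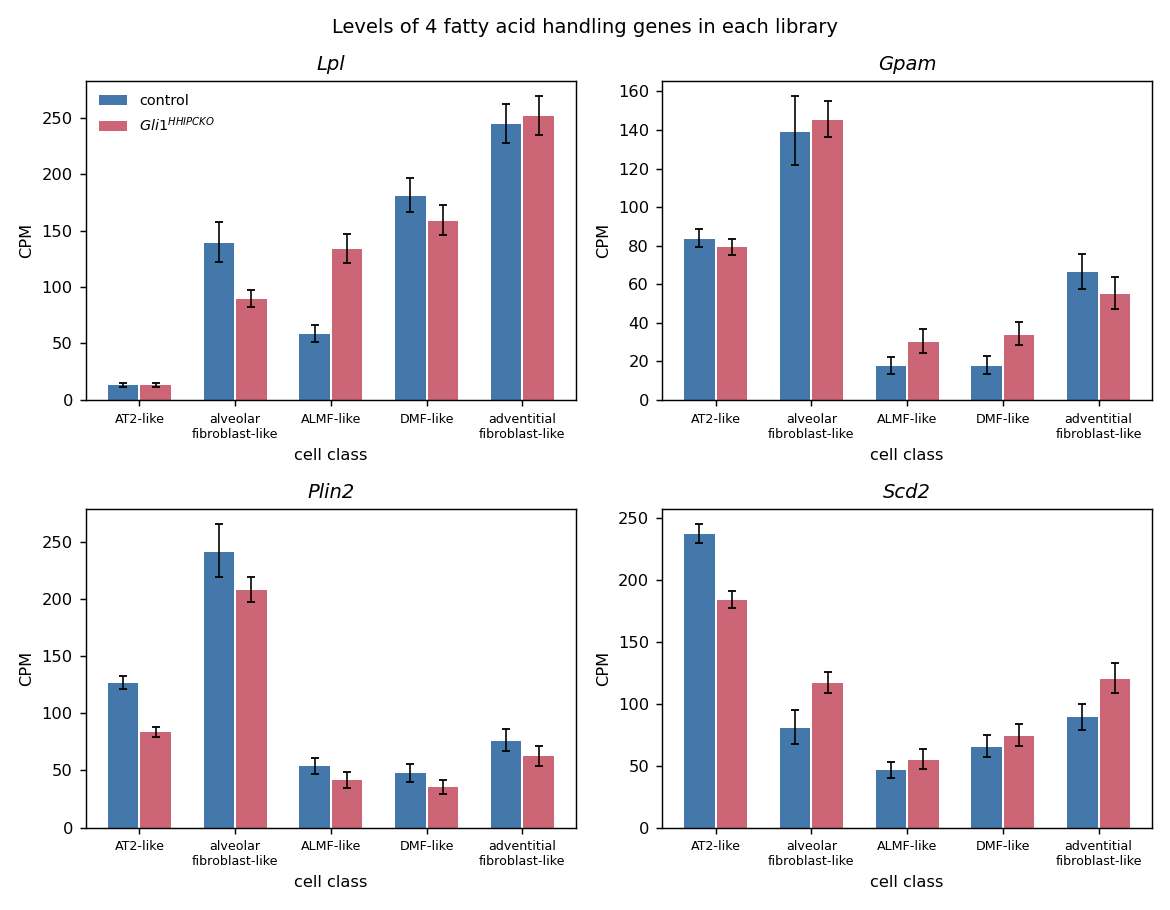
Levels of *Lpl*, *Gpam*, *Plin2* and *Scd2* in CPM (vertical axes, from 0) in 5 cell classes, with control in blue, *Gli1 HHIPCKO* in red and exact Poisson 95% intervals as bars. In ALMF-like cells *Lpl* was at 58.3 CPM in the control and 133 CPM in the *Gli1 HHIPCKO* library.

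Other genes of these pathways, outside the 34, were followed in lists of 25 sterol, 17 fatty acid, 20 storage and breakdown and 20 uptake, binding and PPAR genes. Their counts stand beside the shares of all genes tested, which were 5.99% higher and 5.43% lower in AT2-like, 9.24% and 7.61% in alveolar fibroblast-like, 8.02% and 8.3% in ALMF-like, 8.59% and 7.47% in DMF-like and 9.11% and 6.29% in adventitial fibroblast-like cells. The lists are small, and no result about a list is read from these counts. Of the sterol list, 2 of 18 were higher and 3 lower in adventitial fibroblast-like cells, 1 and 3 of 18 in DMF-like, 2 and 2 of 19 in ALMF-like, 2 and 1 of 16 in alveolar fibroblast-like and 1 and 0 of 23 in AT2-like cells. Medians of this list lay between −0.12 in alveolar fibroblast-like and 0.05 in ALMF-like cells. *Tmem97*, a sterol-regulated gene, fell in adventitial fibroblast-like cells from 35.0 to 22.5 CPM, a log2 ratio of −0.64. *Abca1*, which exports cholesterol and was named after its values were seen, rose in all 5 classes. Its level was 65.1 and 182 CPM in adventitial fibroblast-like, 43.2 and 111 CPM in ALMF-like and 7.39 and 12.7 CPM in AT2-like cells, with log2 ratios from 0.78 in AT2-like to 1.49 in adventitial fibroblast-like cells. *Hsd17b7*, an enzyme of late sterol synthesis, fell in ALMF-like cells from 75.8 to 23.5 CPM and in DMF-like cells from 37.5 to 12.7 CPM, with log2 ratios of −1.69 and −1.57. *Nr1h3*, which encodes a sterol-sensing nuclear receptor, had 43.9 and 23.4 CPM in DMF-like cells, with a log2 ratio of −0.91 that was 0.12 with no genes held out of clustering.

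Of the fatty acid list, 2 of 13 were higher and 0 lower in AT2-like cells, 2 and 1 of 10 in alveolar fibroblast-like, 1 and 2 of 9 in ALMF-like, 1 and 0 of 9 in DMF-like and 1 and 0 of 9 in adventitial fibroblast-like cells. Medians of this list lay between −0.28 in alveolar fibroblast-like and 0.08 in AT2-like cells. *Acsl3*, which activates long chain fatty acids, rose in alveolar fibroblast-like cells from 17.2 to 51.6 CPM, with a log2 ratio of 1.58 (1.04 to 2.17). Named in the other classes after its values were seen, it also rose there (1.49 within the *Lcn2* cluster against 0.80 for AT2-like cells), with log2 ratios from 0.57 in adventitial fibroblast-like to 1.11 in ALMF-like cells. *Tecr*, a reductase gene of chain elongation, fell in ALMF-like cells from 527 to 301 CPM, a log2 ratio of −0.80 that was −0.34 with each library clustered on its own.

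Of the storage and breakdown list, 2 of 13 were higher and 1 lower in ALMF-like cells, and, of 13 again, 1 and 4 in DMF-like, 3 and 2 in alveolar fibroblast-like, 2 and 1 in adventitial fibroblast-like and 1 and 0 in AT2-like cells. Medians of this list lay between −0.07 in adventitial fibroblast-like and 0.17 in ALMF-like cells. *Hilpda*, a hypoxia-inducible inhibitor of triglyceride breakdown, fell in ALMF-like cells from 213 to 53.3 CPM, with a log2 ratio of −2.00 (−2.24 to −1.76). It also fell in DMF-like, alveolar and adventitial fibroblast-like cells, with log2 ratios of −1.63, −0.88 and −0.74, the DMF-like ratio being −0.76 with no genes held out. *Mgll*, which encodes monoacylglycerol lipase, rose in ALMF-like cells from 29.4 to 139.9 CPM and in DMF-like cells from 55.1 to 192 CPM, with log2 ratios of 2.25 and 1.80. These became 1.48 with libraries clustered apart and 1.07 with no genes held out.

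Of the uptake, binding and PPAR list, 3 of 14 were higher and 1 lower in AT2-like cells, 1 and 2 of 13 in alveolar fibroblast-like, 2 and 1 of 11 in ALMF-like, 0 and 2 of 11 in DMF-like and 1 and 0 of 11 in adventitial fibroblast-like cells. Medians of this list lay between −0.14 in alveolar fibroblast-like and 0.28 in ALMF-like cells. *Pdk4*, a PPAR target that spares glucose, rose in AT2-like cells from 1.75 to 7.33 CPM, a log2 ratio of 2.07 that was 1.11 with no genes held out. In the same cells the fatty acid transporter gene *Slc27a4* had 10.5 and 7.39 CPM and the lipoprotein receptor gene *Lrp1* 6.25 and 4.73 CPM, with log2 ratios of −0.50 (−0.20 within the *Sftpc* cluster) and −0.40. *Fabp3*, a fatty acid binding protein gene, fell in alveolar fibroblast-like cells from 189 to 89.2 CPM, a log2 ratio of −1.08. *Fabp4* had a log2 ratio of −4.58 in the same cells, but 105 of its 108 control UMIs came from 1 cell, so the ratio rests on that cell. Of 7 phosphatidylcholine synthesis genes, 6 reached the minimum in each class, with 1 higher and 2 lower in alveolar fibroblast-like cells, 1 higher in DMF-like cells and none past the fold in AT2-like, ALMF-like and adventitial fibroblast-like cells.

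Lists of 7 glucocorticoid-induced genes and of 8 immediate early genes, which are transcribed soon after a stimulus, were read beside the 34. The shares of all genes tested given above for each class stand beside these counts and those of the phosphatidylcholine genes. Of the glucocorticoid-induced genes, 6 of 7 were higher in AT2-like, 4 of 7 in alveolar fibroblast-like, 4 of 7 in adventitial fibroblast-like, 4 of 6 in ALMF-like and 3 of 6 in DMF-like cells, and 1 was lower in each of the alveolar fibroblast-like and DMF-like classes. *Fkbp5*, a glucocorticoid-induced chaperone gene, rose in all 5 classes, with log2 ratios from 1.82 in adventitial fibroblast-like to 2.39 in DMF-like cells. The metallothionein gene *Mt2* rose in AT2-like, alveolar and adventitial fibroblast-like cells (log2 ratios 1.80, 2.15 and 2.22), *Mt1* in ALMF-like and adventitial fibroblast-like cells (2.56 and 1.72) and the kinase gene *Sgk1* in DMF-like cells (1.13). The alveolar *Mt2* ratio (0.98 to 3.63) rests on 6 control UMIs in 3 cells, and 24 of its 100 *Gli1 HHIPCKO* UMIs came from 1 cell. The *Mt1* ratio in ALMF-like cells was −0.97 with no genes held out of clustering and 1.43 together with DMF-like cells. Within single clusters *Mt1* had adventitial ratios from 0.88 to 3.24, and *Mt2* was 1.27 in the largest adventitial cluster and 2.40 in the *Lcn2* cluster. Of the 8 immediate early genes, 6 were higher in AT2-like, 6 in ALMF-like, 3 in alveolar and 3 in adventitial fibroblast-like cells, and 2 were lower in DMF-like cells. The unnamed clusters led by such genes, with 398 *Gli1 HHIPCKO* cells closest to DMF-like and 273 control cells closest to ALMF-like, are outside these counts, and their part in them was not tested. The part of either list in the ratios of the lipid and sterol genes was not tested.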

How the data were processed

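Raw UMI counts per gene and called cell were those the authors deposited, made with Cell Ranger 6.1.0 on mm10 according to the file headers, before any Seurat filter. Cells with 200 to 6000 genes and no more than 10% mitochondrial UMIs entered, scaled to 10000 UMIs. For clustering, 139 genes, the members among them, were held out, and 2000 variable genes, 30 components, 20 neighbours and Leiden resolution 1 (2 for mesenchymal cells) were used. Clusters were named by marker score (1 or more, at least 3 markers in 10% of cells) and left unnamed otherwise. They were also left unnamed by their 10 leading genes, as when none marked the class, or when another lineage or class scored close to the best. A cluster of 119 and 122 cells closest to vascular smooth muscle-like was left unnamed by its leading genes, although 2 were markers of that class. The naming rule and the resolution of 2 were set after clusters had been seen, and other versions had been tried. No doublets were removed. UMIs were summed by class and library, and ratios were read at 100 UMIs or more. The members and lists were chosen with earlier results of these data known. Genes named from the lists were taken from the 3 highest and 3 lowest ratios per class, and others only where the text says that this followed their values. Alternatives were a stricter filter (500 genes, 5% mitochondrial), removal of scrublet doublets, resolution 0.5, no genes held out, libraries clustered apart, thinning to 2000 UMIs, cell means, a median of ratios, a total without abundant genes, single clusters, minima of 30 and 300 UMIs, a fold of 1 and, added later, ALMF-like and DMF-like cells together. Gene positions are from GENCODE vM21. Tools were scanpy 1.11.5, leidenalg 0.10.2, igraph 0.11.9, scikit-learn 1.9.0, scipy 1.17.1, numpy 2.4.6, pandas 2.3.3 and matplotlib 3.10.9 under Python 3.11.15.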

Additional observations from a re-analysis of the deposited data

Results flagged for a closer look

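These genes were flagged because the same gene was past the fold in opposite directions in different cell classes. *Fdft1* had a log2 ratio of 0.65 in AT2-like cells, −0.50 in ALMF-like cells and 0.60 in DMF-like cells. *Lpl* had a log2 ratio of −0.63 in alveolar fibroblast-like cells and 1.19 in ALMF-like cells. With ALMF-like and DMF-like cells together the ratio was −0.07 for *Fdft1* and 0.40 for *Lpl*, both inside the fold. These contrasts therefore depend on which cells were named ALMF-like and DMF-like. The difference between classes was not tested for either gene.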

How the results depend on the processing

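Of 1150 log2 ratios of the 34 genes recomputed under an alternative, 1079 lay within the 95% interval of the main value, 70 lay outside it and 1 that had been past the fold changed sign. The last was that of *Fdft1* in DMF-like cells, −0.068 with ALMF-like and DMF-like cells together, a setting chosen after seeing the data. Among the genes named outside the list, *Mt1* in ALMF-like cells came to −0.97 and *Nr1h3* in DMF-like cells to 0.12 with no genes held out of clustering. Of the 220 summed ratios by role, 182 lay within and 38 outside, and of 480 levels 464 and 16.

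The numbers past the fold in the main analysis were, as higher and lower, 2 and 3 in AT2-like, 3 and 5 in alveolar fibroblast-like, 4 and 4 in ALMF-like, 3 and 3 in DMF-like and 0 and 3 in adventitial fibroblast-like cells. Thinning each cell to 2000 UMIs left 9 to 15 genes at the minimum in the stromal classes and gave 1 and 1 in DMF-like (9.41% and 7.63% of all genes), 1 and 3 in alveolar fibroblast-like (12% and 7.14%) and 2 and 1 in ALMF-like cells (8.22% and 8.8%), with 1 higher and 2 lower of 9 in adventitial fibroblast-like cells (9.8% and 6.3%). It also brought ratios that were still read inside the fold, those of *Srebf2* and *Fdps* in DMF-like and ALMF-like cells. A minimum of 300 UMIs, which leaves fewer genes, gave 0 and 0 of 6 in DMF-like (7.76% and 5.52% of all genes) and 1 and 0 of 8 in ALMF-like cells (6.35% and 6.2%). Alveolar fibroblast-like cells then had 1 and 1 of 11 (8.09% and 4.4%). AT2-like cells had 1 and 2 of 29 (4.83% and 3.22%) and adventitial fibroblast-like cells 0 and 0 of 9 (7.71% and 3.46%). A minimum of 30 UMIs, which admits more genes, gave 5 higher and 7 lower of 32 in ALMF-like cells (11.4% and 10.2% of all genes). It gave 4 and 9 of 33 in alveolar fibroblast-like (11.6% and 12%) and 1 and 7 of 28 in adventitial fibroblast-like cells (11.4% and 9.44%). A fold of 1 gave 0 and 0 in alveolar fibroblast-like (1.41% and 1.01% of all genes), 0 and 0 in DMF-like (2.01% and 1.83%), 1 and 0 in ALMF-like (2.17% and 1.41%), 0 and 1 in AT2-like cells (0.995% and 0.701%), and 0 and 2 of 20 in adventitial fibroblast-like cells (1.31% and 0.677%). With each library clustered on its own, 0 of 15 were higher in ALMF-like (7.33% of all genes) and 2 of 18 in adventitial fibroblast-like cells (15% of all genes), the latter share below that of all genes. Under that setting 4 of 15 were lower in ALMF-like (8.27%) and 2 of 18 in adventitial fibroblast-like cells (4.47%). With no genes held out, 2 of 22 were higher and 2 lower in ALMF-like cells (7.99% and 7.31% of all genes). In DMF-like cells 1 of 14 was then higher and 2 were lower (10.8% and 8.05% of all genes). The mean over cells gave 0 higher and 5 lower of 20 in adventitial fibroblast-like cells (10.3% and 7.86% of all genes). It gave 5 higher and 1 lower of 23 in ALMF-like cells (8.7% and 8.68%). There the median of ratios gave 4 higher and 2 lower of 23 (8.87% and 7.47%). A resolution of 0.5 gave 0 higher and 5 lower of 20 in adventitial fibroblast-like cells (9.23% and 6.66% of all genes). A total without the 50 most abundant, mitochondrial and haemoglobin genes gave 0 higher and 5 lower of 20 in adventitial fibroblast-like cells (7.98% and 7.25% of all genes). It gave 2 higher and 5 lower of 32 in AT2-like cells (4.38% and 7.42%), where the median of all genes moved to −0.07. Apart from the minima and the fold, the cause of these moves was not tested. Within single clusters no value of the list could be made for ALMF-like, DMF-like and alveolar fibroblast-like cells, and with 1 library per condition no replicate could be left out.

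Each condition was 1 mouse, the intervals hold counting error alone, and differences between classes were not tested. The *Hhip* deletion, tamoxifen, sex and mouse cannot be told apart. Myofibroblast and alveolar fibroblast values compare clusters that hold mostly 1 library. In a stromal class 20 to 23 of the 34 genes reached 100 UMIs, against 32 in AT2-like cells, and the parts of depth and of gene level in this were not tested. RNA was read, and neither lipids nor proteins were measured.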
